A study of Mus musculus with 16 samples.

Results

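Microglia without activation transcripts are hippocampal nuclei with captured RNA of microglial identity genes and no captured molecule of 7 genes of the activated state. They were chosen from the counts themselves. Each nucleus had at least 500 unique molecular identifiers (UMIs, single captured RNA molecules), at least 300 genes and at most 5% mitochondrial UMIs. Each held at least 3 UMIs of the microglial genes Inpp5d, Csf1r, Siglech, Ly86, Dock8 and Ikzf1 together. At most 1 UMI was allowed in each of 3 sets of other cells, namely Mrc1 and F13a1 of border macrophages, Slc17a7, Gad1 and Gad2 of neurons, and Mog and Mag of oligodendrocytes. No UMI was allowed of Axl, Itgax, Csf1, Lpl, Cst7, Spp1 or Gpnmb. The rule kept 4993 of 147873 nuclei (3.38%), called members here. They were 80.9% of the 6170 nuclei that met the microglial conditions (gated microglia). The other 1177, with at least 1 UMI of the 7 genes, are called activated microglia here, a name for the rule and not a tested state. Just inside the rule, 190 members had exactly 3 identity UMIs. Just outside it, 195 nuclei had 2 identity UMIs and none of the 7 genes, and 582 activated microglia had exactly 1 activation UMI.

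The nuclei came from 16 hippocampal samples of female mice aged 9 months, in 4 groups of 4 samples. Mice had Ch25h (Ch25h+/+) or lacked it (Ch25h-/-), and were labelled positive (Tau+) or negative (Tau-) for tau. Ch25h encodes cholesterol 25-hydroxylase, which makes the oxysterol 25-hydroxycholesterol and is induced by interferon in macrophages. The series' title places the study on the path from STING, a protein of the DNA-sensing pathway, through interferon to Ch25h and tau pathology. The labels name neither the tau line nor its promoter, do not say whether animals were pooled, and give no batch. Each sample gave 1 single-nucleus library, which samples nuclear RNA. The labels do not state that each library is a separate mouse, so p-values measure only the spread between these samples.

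Microglia are the resident macrophages of the brain. In the homeostatic state they express a sensing program that includes the purine receptors P2ry12 and P2ry13, the chemokine receptor Cx3cr1 and Tmem119. Near protein deposits they can shift to a disease-associated state with Apoe, Axl, Itgax and Cst7, while type I interferon acts through factors that include Stat2 and Irf9 on interferon-stimulated genes. Many of those genes carry an interferon-stimulated response element, a DNA motif read by Irf and Stat factors, near their start.

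The promoter windows below belong to genes whose RNA was higher in Tau+ members, as described further on, and are shown because they hold the core of that element. The motif searched was GAAA, any 2 bases and GAAA again, on both strands, in the 300 bases from 250 before to 50 after each RefSeq gene start (GRCm38.p6). It was present for 7 of the 72 genes higher in Tau+ members that had a promoter sequence (9.72%), for 0 of 39 lower genes and for 282 of 7252 tested genes (3.89%). Over all 32851 promoter sequences the share was 3.44%. Capitals mark the motif, and each window runs 5′ to 3′ along the gene's own strand, upstream of the gene start. The window of B2m, the light chain of MHC class I, lies on the plus strand at chr2:122147518-122147587. That of Clec2d, a C-type lectin gene, lies on the plus strand at chr6:129180396-129180465, and that of Ifi206, of the interferon-inducible p200 family, on the minus strand at chr1:173491319-173491388.
B2m: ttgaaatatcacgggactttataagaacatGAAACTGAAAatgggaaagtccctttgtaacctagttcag
Clec2d: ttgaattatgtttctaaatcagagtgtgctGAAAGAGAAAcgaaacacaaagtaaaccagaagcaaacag
Ifi206: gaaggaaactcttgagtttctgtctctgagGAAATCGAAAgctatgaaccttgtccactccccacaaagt
A match describes these letters and shows no binding.

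Members were shallow nuclei, with a median of 1429 UMIs and a range of 503 to 31313. Per library, 172 to 443 members gave 316511 to 771751 UMIs in all. Library medians were 1332 to 1844 UMIs a member in Tau+ and 1133 to 1594.5 in Tau- mice. In nuclei without microglial UMIs, the first principal component of the deviations from the group means (46.7% of their variance over 9981 genes) separated replicates 1 and 2 from replicates 3 and 4 in all 16 libraries. The labels name no such division. Only 5 member barcodes occurred in more than 1 library.

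The label was checked on microglial genes that the rule did not use, in CPM (the usual unit of RNA-seq counts, here the UMIs of a library's members scaled to one common total). P2ry12 was at 767 to 1185 CPM over the 16 libraries of members, Cx3cr1 at 853 to 1444 and Sall1 at 179 to 385. In barcodes of fewer than 100 UMIs, which hold free RNA and are called the background here, the same genes averaged 82.8, 48.5 and 7.67 CPM. Excitatory neuron markers summed to 683 to 2887 CPM in members and 4785 to 6002 in the background. Of the border macrophage markers, Cd163, Lyve1, Pf4 and Cbr2 were at 0 in 12 to 15 of the 16 libraries, while Stab1 (1475 UMIs) and Colec12 (545 UMIs) were present in all. Of the blood leukocyte list, S100a8, S100a9 and Chil3 were at 0 throughout, while Ighm (557 UMIs), Skap1 (272 UMIs) and Ccr2 (130 UMIs) were detected in each of the 16 libraries.

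Ch25h itself was nearly absent from members. In Ch25h+/+ Tau+ members there were 2 UMIs in 2408387 (0.83 CPM, exact Poisson 95% interval 0.10 to 3.0, counting error only), and Ch25h+/+ Tau- members had 1. The Ch25h-/- groups had 2 UMIs each, so the gene cannot check the genotype labels in members. Activated microglia of Ch25h+/+ Tau+ mice held 32 UMIs, or 21.5 CPM (14.7 to 30.3), with none in replicate 3. Those of Ch25h-/- Tau+ mice held 5, or 4.38 CPM (1.42 to 10.2).

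The tau transgene was not measured here. Gm43049, a non-coding gene at chr3:140692038-140760704, was at 0 in members of 7 of 8 Tau- libraries and detected in 7 of 8 Tau+ libraries, Ch25h-/- Tau+ replicate 1 being the exception. Its highest value was 24.9 CPM in members. In the background it was at 63.45 in Tau+ and 0.034 in Tau- libraries on average, and in members it was too low to be tested.

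The members' share of all nuclei did not differ past the threshold between groups. In Tau- mice the share was 2.995% ± 0.56 with Ch25h and 3.28% ± 0.92 without it, and in Tau+ mice 3.37% ± 0.32 and 3.92% ± 0.91 (SD, 4 libraries each). Over both genotypes Tau+ libraries were 0.51 percentage points higher (exact permutation test within genotype, two-sided, p = 0.17, 0.377 after Benjamini-Hochberg adjustment over 6 effects). For the other 5 effects the adjusted p ran from 0.377 to 0.6, and the smallest p that 4 against 4 allows is 0.0286. Among nuclei of 1000 or more UMIs the difference for tau was 0.936 points over both genotypes (exact permutation p = 0.0118, adjusted p = 0.071) and 0.998 in Ch25h+/+ (adjusted p = 0.251). A share of nuclei cannot tell fewer microglia from more nuclei of other types.

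Among gated microglia the members' share varied more. In Tau- mice it was 96.4% ± 0.69 with Ch25h and 95.7% ± 1.5 without it, and in Tau+ mice 70.3% ± 17.8 and 75.6% ± 12.8 (SD, 4 libraries each). The rule splits microglia on activation RNA, so these shares are a description, with no test. Replicate 3 of both Tau+ groups, at 93.4% and 91.9%, lay next to the Tau- libraries, which ran from 94.1% to 97.4%. The other Tau+ libraries lay between 51.7% and 78.5%. With nuclei thinned to 1000 UMIs each, the group means were 97.2% and 97.4% in Tau- mice with and without Ch25h, and 77.9% and 82.7% in Tau+ mice. Gated nuclei under 1000 UMIs were left out, so thinned and unthinned means cover different nuclei. These numbered from 15 of 420 in Ch25h-/- Tau+ replicate 1 to 142 of 358 in Ch25h+/+ Tau- replicate 2. In Ch25h+/+ Tau+ replicate 1, 343 of 567 thinned nuclei held no activation UMI, against 281 members among the same nuclei before thinning. In Ch25h+/+ Tau- replicate 1 it was 256 of 263, against 251. Absence of activation UMIs thus depends on depth, and members may include activated nuclei whose activation RNA was not captured.

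**Figure D1:**
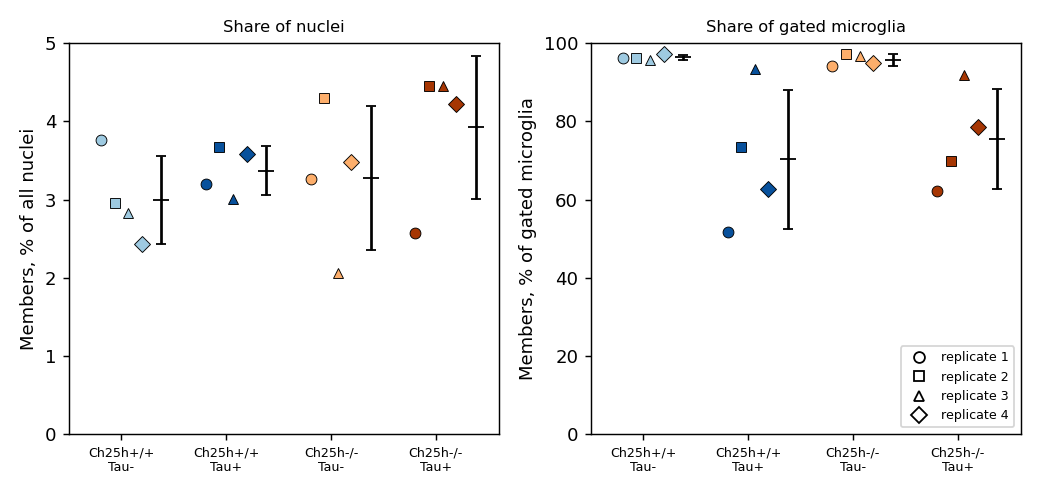
Members in each of the 16 libraries as a percentage of all nuclei and of gated microglia, by group, with circles, squares, triangles and diamonds for replicates 1 to 4 and bars for the group mean ± SD of 4 libraries. As a share of gated microglia, replicate 3 of both Tau+ groups sits at 93.4% and 91.9%, next to the Tau- libraries.

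In Tau+ members, which held no UMI of the 7 activation genes, 12 of 33 tested interferon-stimulated genes were higher than in Tau- members and 0 lower. Of 17 MHC class I genes 7 were higher and 0 lower. Of 6 MHC class II genes 0 passed, and all 6 estimates were positive. UMIs were summed per library and tested with edgeR's quasi-likelihood test across 9335 genes outside the rule. Over both Ch25h genotypes 99 genes were higher (1.06% of those tested) and 54 lower (0.578%) at a Benjamini-Hochberg adjusted p under 0.05. Leaving out 1 library at a time gave 66 to 268 genes, the fewest when Ch25h-/- Tau- replicate 2 was left out and the most when Ch25h+/+ Tau+ replicate 3 was, and 31 higher and 22 lower genes passed in all 16 fits. Replicates 1 and 2 alone gave 125 higher and 90 lower genes, and replicates 3 and 4 alone gave 2 higher and 0 lower. Of the main fit's calls, replicates 1 and 2 alone kept 104 of the 152 then tested. Replicates 3 and 4 alone kept 0 of 149 (edgeR adjusted p up to 0.805). With that division as a term 135 were higher and 92 lower. The mean mitochondrial share of members' UMIs was 0.201% to 0.325% in Tau+ and 0.253% to 0.504% in Tau- libraries. Of the blood leukocyte list 3 genes were tested and 0 called, with a median log2 fold change of 1.43. The part of either in the tau effect was not tested, nor was that of activated nuclei whose activation RNA was not captured.

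Replicate 3 of the Tau+ groups stood nearer to the Tau- libraries here as well. For 78 of the 99 higher genes Ch25h+/+ Tau+ replicate 3 lay within the range of the 8 Tau- libraries, and for 48 of 99 Ch25h-/- Tau+ replicate 3 did. In the other 6 Tau+ libraries that number was 2 to 10. For the 54 lower genes it was 16 and 23 in the same replicates 3, and 3 to 13 in the other 6, the 13 in Ch25h-/- Tau+ replicate 2. All 8 Tau+ libraries lay above all 8 Tau- libraries for 7 genes (0.075% of those tested), and below them for 10 genes (0.107%).

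**Figure D2:**
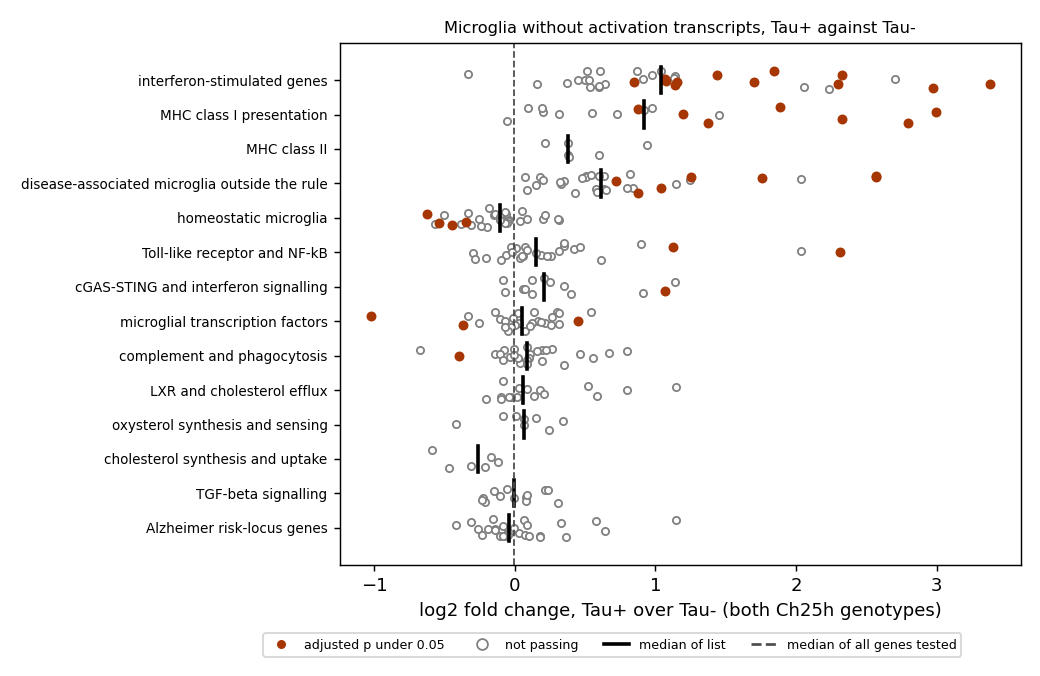
Log2 fold change of Tau+ over Tau- members, over both Ch25h genotypes, for the genes of each list. Filled points passed an adjusted p of 0.05, bars are list medians and the dashed line is the median of all genes tested. The interferon list has its median at 1.04 and the homeostatic list at -0.10.

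Of 54 interferon-stimulated genes in the files, 33 passed the filter on low counts, and 12 of them were higher in Tau+ members and 0 lower. The median log2 fold change of those 33 was 1.04, against -0.01 over all genes. The filter asked for enough counts in 4 libraries only. List genes near 0 in Tau- members, such as Oasl2, could pass it only through Tau+ libraries. The number called and the median of the 33 are therefore not independent of that filter. The 12 were Oasl2, Usp18, Samd9l, Sp100, Nlrc5, Phf11b, Rtp4, Eif2ak2, Rnf213, Irf9, Parp14 and Herc6. Of these, Nlrc5, Eif2ak2, Rnf213 and Irf9 passed whichever library was left out, and the other calls were lost in 1 (Sp100) to 14 (Parp14) of the 16 fits. Oasl2, of the antiviral 2′-5′ oligoadenylate synthetase family (chr5:114896936-114912234), had the largest change of the list. Its level was 111, 30.4, 12.2 and 19.9 CPM in Ch25h+/+ Tau+ replicates 1 to 4, and 64.4, 57.0, 9.72 and 89.3 in Ch25h-/- Tau+. Tau- libraries held 0 to 9.87, so that Ch25h-/- Tau+ replicate 3 alone overlapped them. The log2 fold change was 3.38 ± 0.71 (SE, edgeR adjusted p = 0.0292), and the call was lost in 11 of the 16 fits that left out a library (highest adjusted p 0.076).

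Eif2ak2, the kinase PKR that senses double-stranded RNA (chr17:78852564-78882573), separated the groups without overlap. Tau+ libraries ran from 75.4 to 184 CPM with a median of 112.5, and Tau- libraries from 33.3 to 73.7 with a median of 49.2. The log2 fold change was 1.15 ± 0.20 (edgeR adjusted p = 0.00759), and it passed whichever library was left out. Irf9, the DNA-binding subunit of the factor that interferon receptors activate, ran from 44.9 to 106 CPM in Tau+ and from 23.5 to 46.1 in Tau- members. Its log2 fold change was 1.07 ± 0.18 (edgeR adjusted p = 0.00734), with Ch25h+/+ Tau+ replicate 3 the one library inside the Tau- range.

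Ifi204, of the p200 family, did not pass, with a log2 fold change of 2.70 ± 0.83 (edgeR adjusted p = 0.163). Ifi204 was at 2.04 CPM in Ch25h+/+ Tau+ replicate 3 and at 0 in Ch25h-/- Tau+ replicate 3, against 42.9 to 110 in the other Tau+ libraries. Slfn5, an interferon-induced gene outside the list, was at 67.1, 13.8, 6.12 and 19.9 CPM in Ch25h+/+ Tau+ and 30.3, 33.9, 2.78 and 41.1 in Ch25h-/- Tau+ members. Tau- members had 0 to 9.87, and both Tau+ replicates 3 overlapped them (log2 fold change 3.16 ± 0.71, edgeR adjusted p = 0.0322). Its call was lost in 11 of the 16 fits.

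Of 17 genes of MHC class I presentation, 7 were higher in Tau+ members and 0 lower, with a median of 0.92. All 17 in the files were tested, with the limit on the filter given for the interferon list. Nlrc5 and H2-Q6, scarce in Tau- members, could pass that filter only through Tau+ libraries. Nlrc5 is also among the called interferon genes. B2m (chr2:122147686-122153083), whose promoter window is shown above, was at 213, 136, 114 and 203 CPM in Ch25h+/+ Tau+ members and 216, 208, 126 and 193 in Ch25h-/- Tau+. Tau- members had 73.4 to 134, a range that replicate 3 of both Tau+ groups fell into. The log2 fold change was 0.87 ± 0.16 (edgeR adjusted p = 0.00874) and passed in all 16 fits with a library left out. The heavy chain gene H2-K1 had a median of 199 CPM in Tau+ against 66.2 in Tau- members, with a log2 fold change of 1.37 ± 0.26 (edgeR adjusted p = 0.0179).

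Nlrc5, the transactivator of class I genes, had 12.5 to 89.3 CPM in Tau+ and 0 to 15.9 in Tau- members. Its log2 fold change was 2.33 ± 0.43 (edgeR adjusted p = 0.0146), again in all 16 fits. H2-D1 (1.88 ± 0.40), H2-Q7 (2.99 ± 0.64), H2-Q6 (2.79 ± 0.58) and H2-M3 (1.195 ± 0.30) also passed, but these calls were lost in 13, 10, 1 and 13 of the 16 fits, that of H2-Q6 without Ch25h-/- Tau- replicate 2. H2-Q6 and H2-Q7, like H2-K1 and H2-D1, are close copies, and reads may have been split between them. None of 6 tested MHC class II genes passed (median 0.38).

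**Figure D3:**
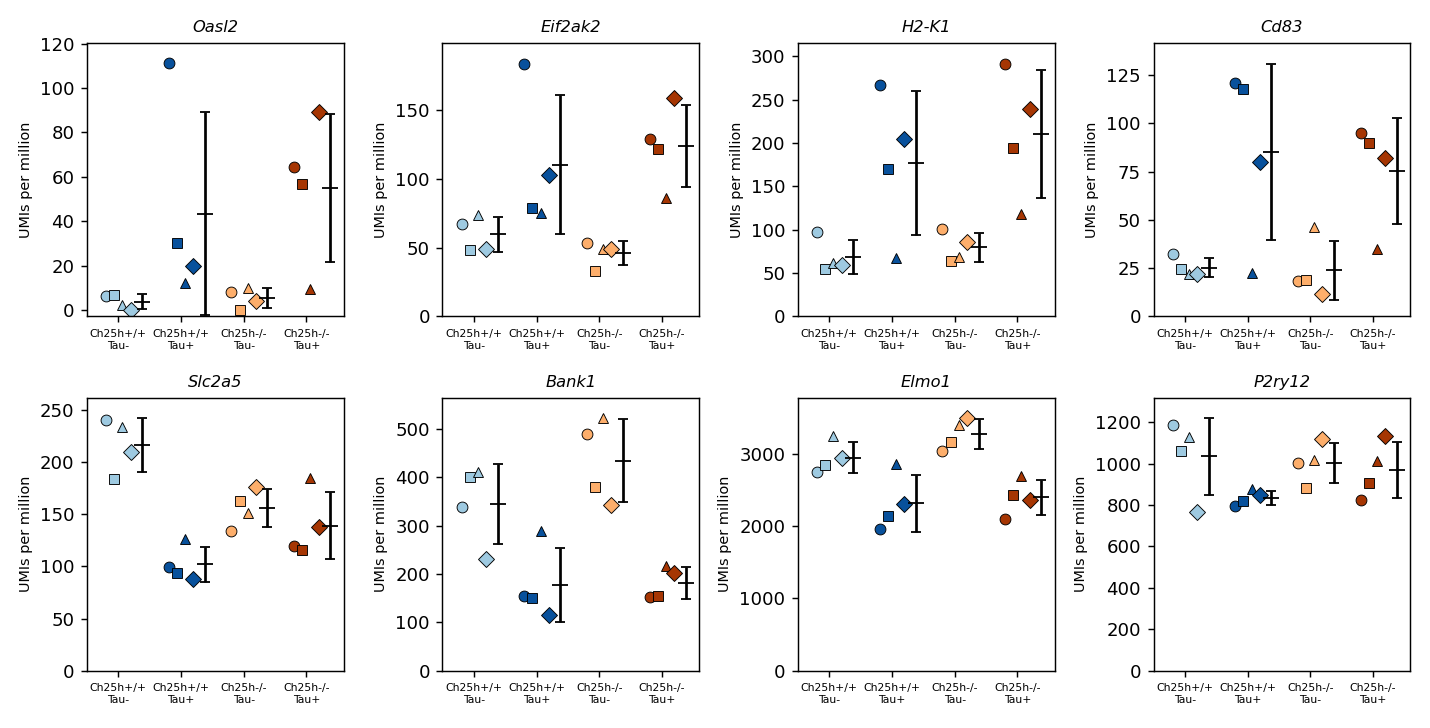
CPM in members for 8 genes, 1 point a library, with circles, squares, triangles and diamonds for replicates 1 to 4 and bars for the group mean ± SD of 4 libraries. Oasl2, Eif2ak2, H2-K1 and Cd83 were called higher with tau, Slc2a5, Bank1 and Elmo1 lower, and P2ry12 did not pass the test.

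Of the genes of the disease-associated state outside the rule, 7 of 32 tested were higher in Tau+ members and 0 lower, with a median of 0.62. The rule removed nuclei with 7 other genes of that state, so the list is not independent of it. Of 45 genes of the list in the files 32 passed the filter on low counts, with the limit given for the interferon list. Lilrb4a, an inhibitory receptor with close copies (chr10:51490956-51496611), was at 92.0, 85.8, 14.3 and 93.0 CPM in Ch25h+/+ Tau+ members and 39.8, 39.3, 4.17 and 30.4 in Ch25h-/- Tau+. Tau- members had 0 to 16.4, and both Tau+ replicates 3 overlapped them. The log2 fold change was 2.57 ± 0.52 (edgeR adjusted p = 0.0223), and the call was lost in 7 of the 16 fits. Cd83, a surface protein of activated antigen-presenting cells, had a median of 85.8 CPM in Tau+ against 21.9 in Tau- members, with both Tau+ replicates 3 inside the Tau- range (log2 fold change 1.76 ± 0.34, edgeR adjusted p = 0.0179).

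Lgals3bp (2.57 ± 0.50), Ptchd1 (1.25 ± 0.29), Arhgap24 (1.04 ± 0.21), Cacna1a (0.72 ± 0.12) and B2m made up the 7. The calls of Cd83 and Lgals3bp were lost without Ch25h-/- Tau- replicate 2, those of Ptchd1 and Arhgap24 in 11 of the 16 fits each, and those of Cacna1a and B2m in 0. Cacna1a, a calcium channel gene of neurons, was at 252 to 435 CPM in Tau+ and 148 to 280 in Tau- members, with 370 and 342 in the background of the Tau+ and Tau- libraries, and the part of free RNA in its change was not tested. Apoe, the lipid carrier that marks the disease-associated state, was at 317 to 1878 CPM in Tau+ and 71.2 to 565.5 in Tau- members, without passing (log2 fold change 1.14 ± 0.37, edgeR adjusted p = 0.191), and was at 2597 and 2387 in the background of the Tau+ and Tau- libraries. Trem2, a lipid receptor of microglia, had a log2 fold change of 0.09 ± 0.13 (edgeR adjusted p = 0.869), and the cathepsin genes Ctsb and Ctsd 0.60 ± 0.18 and 0.15 ± 0.13 (edgeR adjusted p = 0.124 and 0.755).

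Several higher genes belonged to none of these lists. Rai14, an actin-linked protein gene, had 20.4 to 88.2 CPM in Tau+ and 0 to 19.5 in Tau- members, without overlap (log2 fold change 2.499 ± 0.36, edgeR adjusted p = 0.00333). Raet1e, an NKG2D ligand gene with close copies, had 66.7 to 147 against 29.4 to 59.6, also without overlap (1.21 ± 0.17, edgeR adjusted p = 0.00333). Fgr, a Src-family kinase of myeloid cells, had a median of 69.0 against 9.02, but was at 2.04 in Ch25h+/+ Tau+ replicate 3 (2.82 ± 0.52, edgeR adjusted p = 0.0179). Ptprc, the leukocyte phosphatase CD45, changed by 0.61 ± 0.11 and the cathepsin gene Ctsh by 0.72 ± 0.11 on the log2 scale (edgeR adjusted p = 0.00874 and 0.00447). Clec2d, whose promoter window is shown above, was at 29.2 to 85.3 CPM in Tau+ and 11.1 to 43.1 in Tau- members, and 3 Tau+ libraries overlapped the Tau- range (1.31 ± 0.27, edgeR adjusted p = 0.0179). Ifi206, the third gene with a window, was at 12.45 to 48.2 CPM in Tau+ and 4.91 to 19.7 in Tau- members, with Ch25h+/+ Tau+ replicate 2 alone overlapping (1.16 ± 0.29, edgeR adjusted p = 0.0457). The call of Clec2d passed in all 16 fits and that of Ifi206 did not. Cd274, the checkpoint ligand PD-L1, changed by 1.60 ± 0.29 (edgeR adjusted p = 0.00874).

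Of the homeostatic genes, 4 of 32 tested were lower in Tau+ members and 0 higher, with a median of -0.10. These were Slc2a5, the fructose transporter of microglia, the purine receptor gene P2ry13, the matrix protein gene Sparc and Entpd1, the ectoenzyme CD39. Slc2a5 (chr4:150119283-150144169) was at 99.7, 94.1, 126 and 88.0 CPM in Ch25h+/+ Tau+ members and 119, 115, 185 and 137.5 in Ch25h-/- Tau+. It was at 240.5, 183, 233 and 209 in Ch25h+/+ Tau- and 133.5, 163, 151 and 176.5 in Ch25h-/- Tau- members. Within Ch25h+/+ all Tau+ libraries lay below all Tau- libraries, and within Ch25h-/- they overlapped. The log2 fold change was -0.63 ± 0.12 (edgeR adjusted p = 0.0113), and it passed in all 16 fits with a library left out. P2ry13 changed by -0.54 ± 0.12, Sparc by -0.44 ± 0.11 and Entpd1 by -0.35 ± 0.08 (edgeR adjusted p = 0.0226, 0.0485 and 0.0388), and these calls were lost in 8, 13 and 12 of the 16 fits.

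The best known homeostatic markers did not pass. P2ry12 was at 798 to 1134 CPM in Tau+ and 767 to 1185 in Tau- members (log2 fold change -0.18 ± 0.09, edgeR adjusted p = 0.438). Cx3cr1 had -0.20 ± 0.09 (edgeR adjusted p = 0.41) and Tmem119 -0.50 ± 0.13 (edgeR adjusted p = 0.0559). Tmem119 was at 108 to 190 in Tau+ and 151 to 287 in Tau- members.

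The lower genes with the largest changes were mostly outside the lists. Bank1, an adaptor protein gene best known from B cells (chr3:136053363-136326066), was at 153, 151, 290 and 115 CPM in Ch25h+/+ Tau+ members and 152, 155, 217 and 202 in Ch25h-/- Tau+, against 231 to 523 in Tau-. Ch25h+/+ Tau+ replicate 3 alone overlapped (log2 fold change -1.11 ± 0.18, edgeR adjusted p = 0.00857). Gm31243, antisense to Bank1 and not separable from it where counting ignores strand, changed by -0.91 ± 0.16. Myo18b, an unconventional myosin gene, changed by -1.14 ± 0.18, Ccdc162 by -1.24 ± 0.24 and Crybb1, a crystallin gene, by -0.99 ± 0.22 (edgeR adjusted p = 0.00579, 0.012 and 0.0277). Of these only the call of Crybb1 was lost with a library left out, in 10 of the 16 fits.

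Elmo1, an engulfment adaptor, was the 1 lower gene of 26 tested in the complement and phagocytosis list, with 0 higher. It was at 1956 to 2862 CPM in Tau+ and 2751 to 3502 in Tau- members (log2 fold change -0.40 ± 0.08, edgeR adjusted p = 0.012). Slc40a1, the iron exporter ferroportin, was at 84.7 to 128 in Tau+ and 133 to 171 in Tau- members without overlap (-0.59 ± 0.10, edgeR adjusted p = 0.00874). Stab1, a scavenger receptor gene from the border macrophage list, was at 106 to 182 against 189 to 238 (-0.54 ± 0.12, edgeR adjusted p = 0.0217), the 1 call among 2 tested genes of that list, lost in 4 of the 16 fits. Of 28 transcription factors tested, Hlf (-1.02 ± 0.21) and Nfia (-0.37 ± 0.08) were lower and Mitf, a regulator of lysosomal genes, higher (0.45 ± 0.10), and the call of Mitf was lost in 7 of the 16 fits.

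Free RNA exceeded the members' level for 8 of the 54 lower genes, among them Nrgn, Caly, Frrs1l, Atp1b1, Col23a1, mt-Nd2 and mt-Nd4, and for 3 of the 99 higher genes, Cacna1a, Emc8 and Neat1. Nrgn, a postsynaptic protein gene of neurons, was at 15.2 to 38.7 CPM in Tau+ and 26.3 to 92.5 in Tau- members, with 234 and 304 in the background of the Tau+ and Tau- libraries (log2 fold change -1.22 ± 0.21, edgeR adjusted p = 0.00857). Caly changed by -1.01 ± 0.23, Frrs1l by -0.87 ± 0.22 and Col23a1 by -1.27 ± 0.32, calls that were lost in 11, 13 and 14 of the 16 fits. The excitatory neuron markers summed to 1403 ± 479 and 1464 ± 773 CPM in Tau+ mice with and without Ch25h, and to 2052 ± 867 and 1678 ± 190 in Tau- mice (SD, 4 libraries each). The part of free RNA in these changes was not tested. None of 9 tested excitatory neuron markers passed, with a median of -0.36.

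Few genes of sterol metabolism and DNA sensing were called, as were few of all genes tested (1.64%). In the oxysterol list 0 of 8 tested genes passed (median 0.06), in the list of LXR (liver X receptor) targets and cholesterol efflux 0 of 16 (0.06), and in cholesterol synthesis and uptake 0 of 6 (-0.26). Irf9 was the 1 higher gene of 13 tested in cGAS-STING and interferon signalling. Cgas, the DNA sensor, had 0.25 ± 0.18 (edgeR adjusted p = 0.654), Tmem173, which encodes STING, -0.07 ± 0.18 (edgeR adjusted p = 0.93) and the prion protein gene Prnp 0.18 ± 0.14 (edgeR adjusted p = 0.725). In the Toll-like receptor and NF-kB list the cytokine gene Tnf (2.31 ± 0.49) and the nuclear regulator Nfkbiz (1.13 ± 0.22) were higher, 2 of 27 (edgeR adjusted p = 0.0179 and 0.0146), and the call of Tnf was lost without Ch25h-/- Tau- replicate 2. None of 13 TGF-beta genes and none of 28 Alzheimer risk-locus genes passed.

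Within single genotypes fewer genes passed. In Ch25h+/+ mice 5 genes were higher and 3 lower in Tau+ members (0.0536% and 0.0321% of those tested, together 0.0857%). The higher ones were Raet1e (1.39 ± 0.25), the long non-coding RNA AU020206 (0.99 ± 0.19), Ctsh (0.83 ± 0.16), Ptprc (0.80 ± 0.15) and the ceramidase gene Acer3 (0.76 ± 0.13). The lower ones included Myo18b (-1.53 ± 0.26) and Slc2a5 (-1.09 ± 0.17), with Ccdc162 and 8030442B05Rik next at edgeR adjusted p of 0.0551 and 0.0617. With Ch25h+/+ Tau+ replicate 3 left out 94 genes passed, and none did with replicate 1, 2 or 4 of that group or replicate 3 of the Ch25h+/+ Tau- group left out (0 genes in each such edgeR fit). DESeq2 called 33 genes. Replicates 1 and 2 alone gave 53 genes by edgeR, replicates 3 and 4 alone 3, and the division as a term 36. Of the 8 calls these fits kept 6, 0 and 8. A fit of the 8 Ch25h+/+ libraries alone called 0 genes and kept 0 of these 8 calls (edgeR adjusted p up to 0.227), and nuclei of 1000 or more UMIs kept 2, Raet1e and Ctsh.

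In Ch25h-/- mice edgeR called 0 genes and DESeq2 7, and 676 of 9335 tested genes had an unadjusted edgeR p under 0.05. Within replicates 1 and 2 edgeR called 76 genes, within replicates 3 and 4 it called 6, and with the division as a term 0. The smallest p-values belonged to Irf9 (1.28 ± 0.25), Eif2ak2 (1.43 ± 0.28), Rai14 (2.93 ± 0.58), Smim3 (1.60 ± 0.32), Slamf6 (1.07 ± 0.21) and Mctp1 (-0.56 ± 0.11), each at an edgeR adjusted p of 0.0911. Bank1 (-1.25 ± 0.25), Kcnrg, Ceacam1 and mt-Nd4 followed at adjusted p from 0.168 to 0.237 by the same edgeR test.

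Loss of Ch25h gave no call by edgeR in members of all 16 libraries, in either tau state. In Tau+ members 257 of 9335 tested genes had an unadjusted edgeR p under 0.05, a share below 0.05, and DESeq2 called 1 gene. Within replicates 1 and 2 edgeR called 9 genes, within replicates 3 and 4 it called 0, and with the division as a term 0. Apoe had a log2 fold change of -1.33 ± 0.52 and Lilrb4a -1.36 ± 0.52 in Ch25h-/- against Ch25h+/+ Tau+ members (edgeR adjusted p = 0.9999 for both). In the same comparison 1 of 9 tested astrocyte markers was positive and 0 were called, with a median of -0.61, and the list summed to 639 to 1130 CPM in Ch25h-/- and 865 to 1334 in Ch25h+/+ Tau+ members. Its part in the Apoe value was not tested. B2m (0.16 ± 0.21) and P2ry12 (0.21 ± 0.12) did not pass either. The smallest p-values were those of Gm34280, Myo18b, Klhdc8b, Zeb2os and Arrdc3 among higher estimates, and of Ptpn9, Neurl1a, Zfp451, Csnk1a1 and Atp8a2 among lower ones.

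In Tau- members edgeR and DESeq2 called 0 genes for loss of Ch25h. An unadjusted edgeR p under 0.05 was found for 319 of 9335 tested genes, a share below 0.05. The 2 sets of replicates gave 0 genes (1 and 2) and 5 genes (3 and 4) by edgeR, and the division as a term 0. Neurl1a, a ubiquitin ligase gene, had the smallest p, at -0.84 ± 0.17 (edgeR adjusted p = 0.994). Bsdc1, Hdac9, Fggy, Mppe1 and 4932438A13Rik led the higher estimates, and Dnajb4, Zbtb25, F3 and Prnp (-0.72 ± 0.21) the other lower ones. Of 9 tested astrocyte markers 0 were positive and 0 called, with a median of -0.58, and the list summed to 509 to 1067 CPM in Ch25h-/- and 658 to 2039 in Ch25h+/+ Tau- members. Its part in these estimates was not tested.

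The difference between the tau effects of the 2 genotypes passed for 0 genes by edgeR and DESeq2. An unadjusted edgeR p under 0.05 was found for 321 of 9335 tested genes, a share below 0.05. By edgeR, 14 passed within replicates 1 and 2, 10 within replicates 3 and 4, and 0 with the division as a term. For Slc2a5 the tau effect was -1.09 ± 0.17 in Ch25h+/+ and -0.16 ± 0.16 in Ch25h-/- members, a difference of 0.93 ± 0.23 (edgeR adjusted p = 0.99999). For Lilrb4a the estimates were 3.87 ± 0.76 and 1.27 ± 0.69, a difference of -2.60 ± 1.14 (edgeR adjusted p = 0.99999). Gm16638, Zfp385b, Gm49961 and Psmd9 had the other smallest p-values among positive differences, and Dse, Ptpn9, 4932438A13Rik, Csnk1a1 and Atp8a2 among negative ones.

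Members were then set against the activated microglia of the same libraries, in 14 libraries with at least 10 nuclei of both kinds. The genes of the rule were left out of the counts. The rule split these nuclei on 7 genes of the activated state, so the disease-associated and homeostatic lists are not independent of the split. Activated nuclei had library medians of 954 to 2475 UMIs, against 1133 to 1844 for members, with means of 1847 and 1454 over all 16 libraries. Members were the shallower nuclei in every library except Ch25h+/+ Tau- replicate 2, where their median was 1133 against 954. Of 9215 genes, 465 were higher (5.05%) and 291 lower (3.16%) in members, 8.2% in all. With relative log expression scaling the median of all genes moved from 0.05 to -0.07, and the split was 270 higher and 419 lower. Of 114 named calls, 102 held under that scaling and 79 in every fit that left out a library. The fewest held without Ch25h-/- Tau+ replicate 2, with 90 of the 110 then tested, and in nuclei of 1000 to 3000 UMIs 96 of 109 held and 1, that of Rora, reversed. In Tau+ libraries alone, a setting chosen after seeing the data, 356 genes were higher and 385 lower, and 84 of 98 named calls held.

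**Figure D4:**
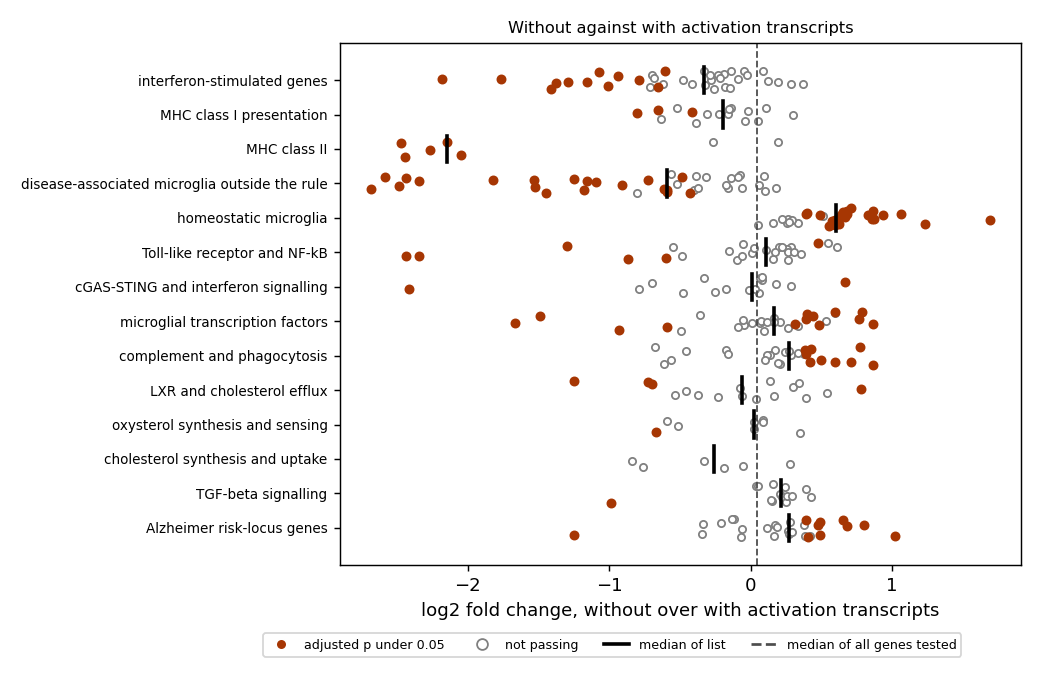
Log2 fold change of members over activated microglia of the same libraries, for the genes of each list, with filled points past an adjusted p of 0.05, bars for list medians and a dashed line for the median of all genes tested. The homeostatic list has its median at 0.60 and MHC class II at -2.15.

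Homeostatic genes were higher in members for 23 of 32 tested and lower for 0, with a median of 0.60. Slc2a5 changed by 1.69 ± 0.17, Tmem119 by 1.23 ± 0.16, P2ry13 by 0.94 ± 0.18, P2ry12 by 0.87 ± 0.10 and Cx3cr1 by 0.69 ± 0.11. Other called genes of the list included Mertk, Cst3, Fcrls, Olfml3, Selplg, Cd33, Mef2a, Itgam, Sall1, Lpcat2, Sparc, Golm1, Mef2c, Bin1, Entpd1 and Gpr34. In the complement and phagocytosis list 9 of 27 were higher and 0 lower, among them the complement genes C1qa (0.39 ± 0.12), C1qb (0.40 ± 0.11) and C1qc (0.42 ± 0.12), Mertk, an engulfment receptor (0.60 ± 0.11), and Elmo1 (0.77 ± 0.10), with Itgam, Gas6 and Syk. Of the transcription factors 9 of 30 were higher, with Sall1, which maintains microglial identity, at 0.86 ± 0.13 beside Nfatc2, Nfia, Mef2a, Maf, Fli1, Ets1, Mef2c and Klf12, and 4 were lower, Bhlhe40, Pparg, Rora and Hif1a. Of the Alzheimer risk-locus genes 9 of 28 were higher, namely Bin1, Cd33, Cass4, Picalm, Inpp4b, Abi3, Rin3, Mef2c and Ms4a6b, and Apoe was lower. Of 14 TGF-beta genes Itgb8, an integrin that activates TGF-beta, was lower. Calls lost in some fits with a library left out were those of Rora (11 fits), Rin3 (10), Nfia and Itgb8 (8 each), Syk (6), Olfml3 and C1qa (3 each), Mef2c (2), and Hif1a and Ms4a6b (1 each).

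Outside those lists Crybb1 (2.22 ± 0.29), Cntnap4 (1.87 ± 0.37), Gm31243 (1.76 ± 0.20), Bank1 (1.70 ± 0.18), the interleukin receptor gene Il7r (1.66 ± 0.28), Nhs (1.66 ± 0.19), Bnc2 (1.65 ± 0.41) and Gm3739 (1.64 ± 0.33) had the largest changes. Skap1, a T cell adaptor gene from the blood leukocyte list, was at 2.66 ± 0.36, and Ighm of the same list at 0.93 ± 0.21. Over all members the T cell genes Cd3e and Cd3g had 20 and 19 UMIs and Themis 100, with Themis at 0 in 5 of the 16 libraries.

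Lower in members were 20 of 37 tested disease-associated genes, 12 of 37 interferon-stimulated genes, 3 of 16 MHC class I genes and 5 of 7 MHC class II genes, with 0 higher in each list. Genes scarce in members, such as Igf1 and Cybb (64 and 77 UMIs over all members), could pass the filter on low counts through activated microglia alone. These counts are therefore not independent of how the nuclei were split. Cybb, the catalytic subunit of the phagocyte oxidase, changed by -2.68 ± 0.25, the growth factor gene Igf1 by -2.58 ± 0.26, Lilrb4a by -2.48 ± 0.21, Apoe by -1.25 ± 0.20 and Cd83 by -1.09 ± 0.16. The other lower genes of the disease-associated list were Ctse, Nceh1, Plin2, Arhgap24, Apobec1, Cd9, Cd22, Cacna1a, Nrp1, Myo1e, Ccl3, Ccl4, Hif1a, Colec12 and Ptchd1. Cd74, the class II invariant chain, changed by -2.47 ± 0.45, H2-Aa by -2.44 ± 0.35 and the class II transactivator gene Ciita by -2.05 ± 0.35, and H2-Ab1 and H2-Eb1 were lower too. In class I these were Nlrc5, H2-K1 and H2-Q4, whose calls were lost in 4, 10 and 1 of the fits that left out a library. Those of Arhgap24 and Cacna1a were lost in 9 such fits each, that of Cd9 in 1. Of the border macrophage markers Ms4a7 changed by -2.96 ± 0.47, Colec12 was lower and Stab1 higher. Markers of other cells moved as well. Of 8 tested astrocyte markers 0 were positive, 6 had an unadjusted edgeR p under 0.05 and 1, Gfap, was called, with a median of -0.87. The astrocyte list summed to 509 to 2039 CPM in members and 363 to 8286 in activated microglia. Prr5l of oligodendrocytes and Flt1 of vessels were lower and Pecam1 of vessels higher. The calls of Gfap and Pecam1 were lost in 2 fits each and that of Flt1 in 5, and the part of other cells in these differences was not tested. Rab7b (-2.94 ± 0.37), Aoah (-2.55 ± 0.67), Gas2l3 (-2.49 ± 0.28) and Gm42836 (-2.47 ± 0.38) completed the 10 largest decreases, with the call of Aoah lost in 5 fits.

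The interferon genes lower in members were Ifi207, Ifit2, Ifi213, Ifit3, Oas2, Ifi204, Usp18, Oasl2, Samd9l, Phf11d, Nlrc5 and Rnf213, from -2.18 ± 0.24 for Ifi207 to -0.61 ± 0.15 for Rnf213. B2m (-0.16 ± 0.14, edgeR adjusted p = 0.659), Ctsb (-0.31 ± 0.14, edgeR adjusted p = 0.183) and Trem2 (0.27 ± 0.13, edgeR adjusted p = 0.239) did not pass. In the Toll-like receptor and NF-kB list the chemokine genes Ccl3 and Ccl4, Tlr2, Nfkbiz and Tnf were lower and Il10ra higher, of 27 tested. Tmem173 was higher in members by 0.67 ± 0.18 (edgeR adjusted p = 0.0083), and Ikbke, a kinase of the interferon pathway, changed by -2.42 ± 0.38. In the list of LXR targets and cholesterol efflux Abca9 was higher and Nceh1, Apoe and Lipa lower, of 17, and of 8 oxysterol genes Cyp7b1, which hydroxylates 25-hydroxycholesterol, was lower. With a library left out, calls were lost for Cyp7b1 (11 fits), Phf11d (7), Nfkbiz (6), Tnf, Lipa and Nlrc5 (4 each), Oas2, Usp18 and Tlr2 (3 each) and Tmem173 (1).

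Calls for a tau effect that differed between members and activated microglia depended on the scaling. The Tau- libraries in this test held 12 to 18 activated nuclei each and the Tau+ libraries 18 to 301. Nuclei with 3 or more activation UMIs numbered 0 or 1 in each of those Tau- libraries and 3 to 119 in the Tau+ libraries. The part of this difference in the calls was not tested. The main test called 2 genes with a positive and 49 with a negative difference (members' tau effect minus that of activated microglia), 0.0217% and 0.532% of those tested and 0.553% together. The median of all genes was -0.29 in that fit and 0.04 with relative log expression scaling, which called 5 genes, and DESeq2 called 3. The largest negative differences were those of Nras, Nol4l, Myo9b, Tlk1, Grn, Myo5a, Irf8, Apobec1, Osbpl8 and Cd180, and the positive ones were Slco1c1 and Sfxn5. Of 20 named calls only those of Apobec1, Slco1c1 and Sfxn5 held with relative log expression scaling, and 0 of 13 tested held with DESeq2. Zeb2, Ctsz, Tgfbr1, Abca1, Mitf, Plcg2 and Mylip were the other genes of the lists with a negative difference. Ctsb was among the 49, with a difference of -1.39 ± 0.27 (edgeR adjusted p = 0.00574, and 0.1 with relative log expression scaling).

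The share of members with interferon UMIs differed between libraries, which does not measure how nuclei within a library vary. At 1000 UMIs a nucleus, the share of members with at least 3 UMIs of interferon-stimulated genes was 61.2%, 32.8%, 18.3% and 41.2% in Ch25h+/+ Tau+ and 53.0%, 41.7%, 29.1% and 53.3% in Ch25h-/- Tau+ replicates 1 to 4. In Tau- libraries it ran from 13.2% to 25.5%, and in neurons with Slc17a7, thinned likewise, from 0% to 2.67%. Replicate 3 of Ch25h+/+ Tau+ lay within the Tau- range. P2ry12 had a UMI in 49.7% to 68.1% of Tau+ and 55.7% to 69.7% of Tau- members, against 4.67% to 11.4% of the neurons. Members of fewer than 1000 UMIs were left out, which kept 154 to 348 a library.

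The summed level of the interferon list in members was 2461 ± 1099 and 2774 ± 939 CPM in Tau+ mice with and without Ch25h, against 1285 ± 252 and 1345 ± 146 in Tau- mice (SD, 4 libraries each). Replicate 3 was the lowest of each Tau+ group, at 1328 and 1478, within the Tau- range of 1000 to 1613. The homeostatic list summed to 19763 to 27308 CPM over the 16 libraries, and its groups overlapped.

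**Figure D5:**
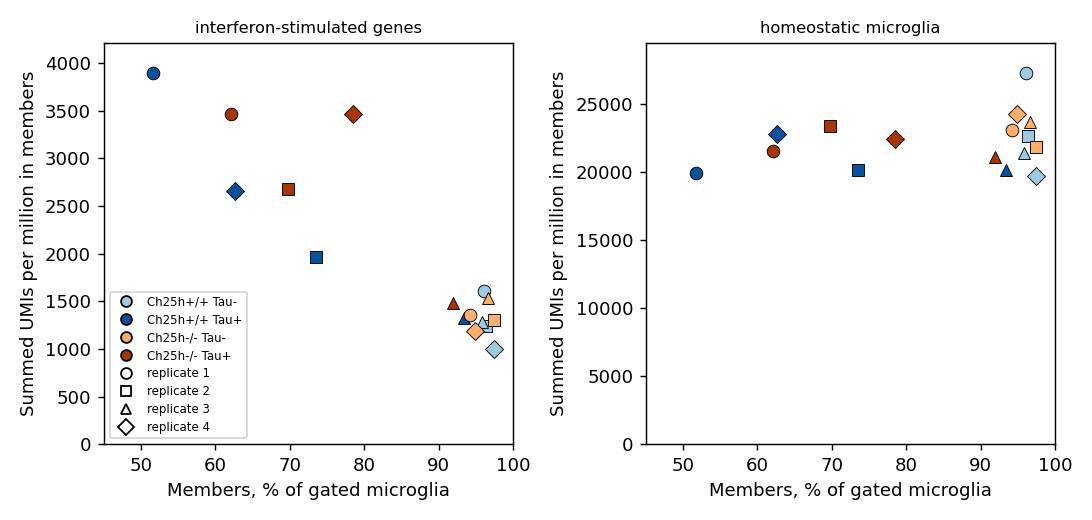
Summed CPM in members of the interferon-stimulated list and of the homeostatic list against the members' share of gated microglia, 1 point a library, with colours for groups and symbols for replicates as in the plot's key. For the interferon list 6 Tau+ libraries lie at 1964 or more, and the Tau+ replicates 3 lie among the Tau- libraries in summed CPM and just below them in share.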

How the data were processed

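Single-nucleus libraries (10x 3′ chemistry) of 16 samples were deposited as UMI counts per gene and barcode, unnormalised. The file headers name Cell Ranger 4 and the submitters' processing notes Cell Ranger 3.1.0 and mm10; use of intronic reads and of strand is not given in the sources used here. The deposited matrices hold 33161829 barcodes, from which nuclei were chosen by the filters in the report. Members and gene lists were chosen with earlier results of these data known. UMIs were summed per library (316511 to 771751 in members) and tested in edgeR 4.0.16 (R 4.3.3, limma 3.58.1; TMM scaling, filterByExpr, robust quasi-likelihood fit, group means over 16 libraries, Benjamini-Hochberg adjustment over all genes tested). The 20 genes of the rule were left out of counts of calls. Members against activated microglia had the library as a block. The tests were checked on simulated data. Shares were compared by exact permutation (scipy 1.17.1). UMI intervals cover counting error only.

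Named genes are, per comparison, up to 10 called genes in each direction with the largest change (averaging 5 UMIs or more per library in the higher group), the 5 smallest p in a direction with fewer than 5 calls, called list members, and 19 genes fixed by name. Some genes that this rule names are not reported here. Other genes were singled out after their values were seen. Alternatives were DESeq2 1.42.0, other scaling, filters and gates, removal of the highest Scrublet scores (scanpy 1.11.5; no doublets were removed in the main analysis), leaving out libraries, and the division of replicates. Gene positions are from GENCODE M21 (mm10), and promoters from RefSeq.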

Additional observations from a re-analysis of the deposited data

Results flagged for a closer look

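In 17 of 171 groups of 4 libraries, 1 library lay apart from the other 3 by Dixon's criterion, which chance meets in about 1 in 20 groups. The members' share of nuclei was 2.57% in 1 Ch25h-/- Tau+ library, the lowest of that group. Among summed levels, MHC class I presentation reached 682.3 CPM in 1 Ch25h+/+ Tau- library and the homeostatic list 22820 in 1 Ch25h+/+ Tau+ library.

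Single genes with a low library were Lilrb4a, at 14.3 CPM in Ch25h+/+ Tau+ replicate 3, and, in Ch25h-/- Tau- members, Nlrc5 at 3.29, Tmem173 at 49.4 (49.35) and Ifi204 at 0. Genes with a high library were Hlf, at 61.2 in Ch25h+/+ Tau+, and Frrs1l, at 61.4 in Ch25h+/+ Tau-. At 1 to 5 UMIs in the library named, H2-Q6 and H2-Q7 reached 8.16 in Ch25h+/+ Tau- members, and H2-Q6 6.58, Lgals3bp 9.80 (9.805) and Gm43049 1.58 (1.585) in Ch25h-/- Tau-. Ch25h reached 2.21 in Ch25h+/+ Tau-, 3.83 in Ch25h+/+ Tau+ and 3.92 in Ch25h-/- Tau- members, from 1 or 2 UMIs.

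The tau effect differed between members and activated microglia for 51 genes by edgeR's quasi-likelihood test of the difference, against 5 with relative log expression scaling and 3 with DESeq2.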

How the results depend on the processing

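No paired analysis was possible because replicate numbers were given in accession order and pair no samples of different groups, and members against activated microglia, from the same libraries, had the library as a block in the main test. A floor of 3 times the background median lay at 198 to 408 UMIs, below the minimum of 500 UMIs. It removed no nucleus, so the unchanged counts are no check on background. The limit of 3000 UMIs and the use of Tau+ libraries alone were chosen after seeing the data. For each change below the cause was not tested.

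The tau effect in Ch25h+/+ members (8 genes) gave 51 with at most 3000 UMIs, 33 with DESeq2, 34 without the highest Scrublet scores, 51 with no filter on low counts, 2 with at least 1000 UMIs, 0 in a fit of those groups alone, 53 in replicates 1 and 2, 3 in replicates 3 and 4, and 36 with that division as a term. In Ch25h-/- members (0 genes) the same settings gave 11 (at most 3000 UMIs), 7 (DESeq2), 1 (Scrublet), 19 (no filter), 7 (those groups alone), 76 (replicates 1 and 2) and 6 (replicates 3 and 4). Over both genotypes (153 genes) they gave 250 (at most 3000 UMIs), 240 (no filter) and 2 (replicates 3 and 4).

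Loss of Ch25h (0 genes) gave 1 gene with DESeq2 and 9 in replicates 1 and 2 for Tau+ members, and 5 in replicates 3 and 4 for Tau- members. The difference between the tau effects (0 genes) gave 14 in replicates 1 and 2 and 10 in replicates 3 and 4. The tau effect in members against that in activated microglia (51 genes) gave 79 with at most 3000 UMIs, 3 with DESeq2, 93 without the highest Scrublet scores, 226 with no filter, 82 with at least 1000 UMIs, 27 with 1000 to 3000 UMIs and 5 with relative log expression scaling. Rora, lower in members than in activated microglia, had a log2 fold change of 0.041 with 1000 to 3000 UMIs.

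Leaving out 1 library at a time gave 0 to 94 genes for tau in Ch25h+/+, 0 to 5 in Ch25h-/-, 66 to 268 over both, 0 for loss of Ch25h and for the difference between tau effects, and 607 to 787 for members against activated microglia. Over both genotypes the count moved by more than 1.5 times without Ch25h+/+ Tau+ replicate 1 (85), 2 (96), 3 (268) or 4 (83), Ch25h+/+ Tau- replicate 3 (95) or 4 (98), Ch25h-/- Tau+ replicate 1 (88), 2 (101) or 4 (72), and Ch25h-/- Tau- replicate 2 (66) or 4 (89). For the tau effect in members against activated microglia the range was 23 to 116 genes, from 23 when Ch25h-/- Tau- replicate 2 was left out to 116 when Ch25h+/+ Tau+ replicate 3 was, and 33 when Ch25h-/- Tau+ replicate 1 was.

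With 1 library left out at a time, differences in the share of nuclei ranged from 0.182 to 0.628 percentage points for tau in Ch25h+/+, 0.245 to 1.10 in Ch25h-/-, 0.308 to 0.736 over both, 0.380 to 1.01 for loss of Ch25h in Tau+, -0.061 to 0.683 in Tau- and 0.248 to 0.644 over both. Those in the share of gated microglia ranged from -33.8 to -19.9, -25.6 to -15.7 and -27.0 to -20.0 points for tau in Ch25h+/+, in Ch25h-/- and over both. At 172 to 443 members a library, genes of a few UMIs were at or below the filter.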
